A study of Arabidopsis thaliana with 8 samples.

Results

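The 8 Affymetrix ATH1 arrays of this series, all taken from one Arabidopsis thaliana genotype, were set against each other as a day side and a night side. The day side holds the arrays labelled 04h, 08h, 12h A and 12h B, and the night side holds those labelled 16h, 20h, 00h A and 00h B, so that all 8 arrays of 8 were used, 4 on each side. Every array carries RNA of full rosettes of the *pgm* mutant in the Col-0 background, 5 to 6 weeks old, for which 5 harvests of 3 rosettes each, 15 rosettes in all, were frozen inside the growth chamber and ground together. No wild-type array was analysed here, so the values describe the mutant alone. The labels give neither the hours of light nor whether the A and B arrays of an hour came from separate plants. The names day side and night side therefore stand for these hours only. A p-value here weighs a difference against the spread of these 8 arrays inside the sides. That spread holds change between the hours of a side and a spread between arrays that may be technical. Each side mixes 3 hours, and only 12h and 00h have 2 arrays, so that at 04h, 08h, 16h and 20h the hour and the array cannot be told apart.

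In *Arabidopsis* leaves part of the carbon fixed in the light is stored in the plastid as starch, and the starch is broken down at night to feed respiration and growth. Plastidial phosphoglucomutase, the enzyme altered in *pgm*, makes the glucose 1-phosphate from which ADP-glucose, the donor for starch, is formed; plants without it make almost no leaf starch, gather sugars in the light and run short of them in the dark. The protein kinase SnRK1 is active when carbon is scarce and changes the transcription of many genes, among them genes for breaking down amino acids and for recycling cell contents by autophagy, while growth and ribosome formation are favoured when sugar is plentiful. *PGM1*, the gene for this enzyme, was not analysed here. The study's labels name the hours and the mutant; the comparison below asks which transcripts separate the day-side arrays from the night-side arrays, and how even their levels are within each side.

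The values are MAS5 intensities as deposited, a linear measure of a probe set's brightness, and were put on the scale log2(intensity + 16). The probe sets with the lowest 40% of means were left out, which left 13647 of 22746 for the test. A probe set is called apart here when its lowest array on one side lies above its highest array on the other, and the distance between those 2 arrays is its gap. It is called changed when limma, fitted over all tested probe sets, gives a Benjamini-Hochberg adjusted p under 0.05. Differences are day side minus night side on the log2(intensity + 16) scale, which understates the change of dim probe sets, and errors of differences are standard errors of the fit on 4 and 4 arrays. Because RNA came from whole rosettes, fewer cells of a type and less RNA per cell cannot be told apart in any difference below.

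The sides were more different from each other than arrays within a side. Over the tested probe sets the median absolute log2 difference between a day-side and a night-side array ran from 0.343 to 0.599 over the 16 such pairs, with a median of 0.518. Between arrays of different hours inside the day side it ran from 0.207 to 0.331 over 5 pairs, and inside the night side from 0.215 to 0.344 over 5 pairs. The A and B arrays of the same hour differed by 0.255 at 12h and 0.236 at 00h, about as much as arrays of different hours on one side. At both hours the A array had brighter hybridisation controls than the B array, as given below, so these values may hold that difference too. The 4 smallest values across the sides all belonged to the 16h array, at 0.343 with 04h, 0.359 with 08h, 0.387 with 12h B and 0.401 with 12h A, and the first lies just under the highest pair inside the night side.

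**Figure D1:**
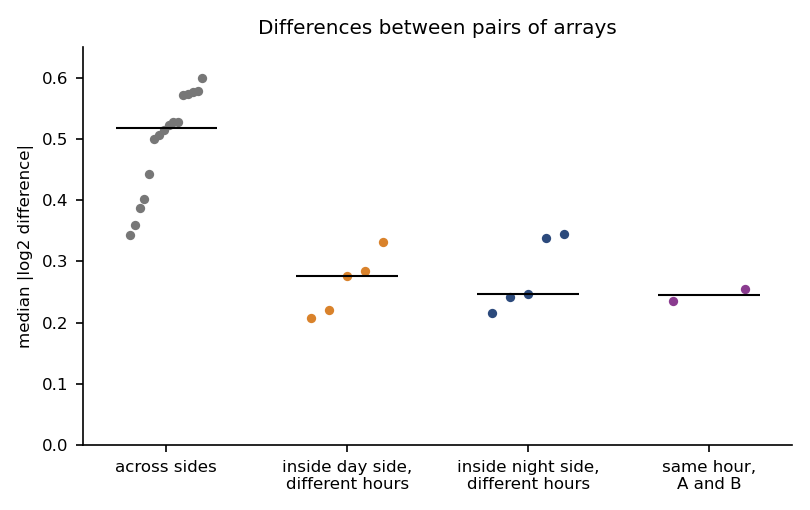
Median absolute log2 difference over 13647 probe sets for each pair of arrays (vertical axis, log2 units), grouped by whether the pair lies across the sides, inside the day side, inside the night side, or shares an hour; each point is 1 pair of arrays and each bar a median. The 16 pairs across the sides lie between 0.343 and 0.599, and the pairs inside a side lie at or below 0.344.

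Of the 13647 tested probe sets, 5352 (39.2%) were apart, 2799 higher on the day side (20.5%) and 2553 lower on the day side (18.7%). The limma test called 5965 (43.7%), 3225 higher (23.6%) and 2740 lower (20.1%), and 4910 probe sets (36.0%) were both called and apart. With every array scaled to the same median the call split changed to 2507 higher and 3305 lower, so the share of higher calls was 43.1% in place of 54.1%, and that of higher apart probe sets 43.2% in place of 52.3%. That scaling moves the median difference of all tested probe sets by -0.13, from 0.05 to -0.08 on the log2 scale. The overlap and the test did not pick the same probe sets throughout, since 442 apart probe sets were not called and 1055 called ones overlapped. Among the 4910 that met both criteria, the median size of the difference was 0.94 log2 units, against 0.43 over all tested, and 2262 differed by more than 1 log2 unit (2-fold), 1137 higher and 1125 lower on the day side. Wide gaps were more common among the genes lower on the day side. A gap over 1 log2 unit occurred in 211 higher and 356 lower probe sets, a gap over 2 in 9 higher and 92 lower, and a gap over 3 in 1 higher and 32 lower.

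The genes with the widest gaps higher on the day side were led by *TBL26*, and included genes of starch synthesis and sucrose transport. These genes were ranked by their gap on these same arrays, so their sizes describe the extremes of the table. *TBL26*, of a family whose members acetylate cell wall polysaccharides, had intensities of 1078, 586, 978 and 1209 in day-side arrays, against 34.1, 15.3, 28.8 and 20.0 in night-side arrays. It was the only higher probe set whose gap passed 3, and the difference was 4.57 ± 0.24 (SE, limma adjusted p = 8.79e-07). *APL3*, a large subunit of ADP-glucose pyrophosphorylase, the enzyme that makes ADP-glucose, had 216, 288, 231 and 336 in day-side arrays, against 42.4, 27.2, 16.1 and 14.2 in night-side arrays, where the 16h array was the highest and both 00h arrays were the lowest. The difference of *APL3* was 2.82 ± 0.23 (SE, limma adjusted p = 1.49e-05). *SWEET13*, a sucrose transporter of the plasma membrane, had 178, 160.3, 89.4 and 88.8 in day-side arrays, against 15.6, 12.4, 13.1 and 9.9 in night-side arrays. On the day side *SWEET13* was lower in both 12h arrays than at 04h and 08h, whereas all 4 night-side arrays were at the dim end of the scale, and the difference was 2.28 ± 0.22 (SE, limma adjusted p = 3.59e-05). *PPR596*, a pentatricopeptide repeat protein of mitochondria, had 212, 233, 192 and 192 in day-side arrays, against 38.0, 17.1, 19.4 and 17 in night-side arrays. Its day-side values spanned only 0.26 log2 units, the difference was 2.54 ± 0.18 (SE, limma adjusted p = 6.56e-06), and the 16h array stood above the other night-side arrays.

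The other 8 genes of this group are known here by locus only, and no role is given for them. AT1G73600 had 1789, 1574, 739 and 1031 in day-side arrays, against 142, 26.4, 27.3 and 29.4 in night-side arrays, a difference of 4.35 ± 0.43 (SE, limma adjusted p = 4.5e-05). Most of its night-side range of 1.89 log2 units came from the 16h array, since the other 3 night-side arrays lay close together. AT1G06000 had 338, 206, 488 and 538 in day-side arrays, against 52.0, 14.0, 3.6 and 15.6 in night-side arrays, a difference of 3.52 ± 0.38 (SE, limma adjusted p = 7.74e-05). AT3G44450 had 635, 591, 281 and 304 in day-side arrays, against 53.4, 35.8, 31.7 and 31.4 in night-side arrays, and its values at 04h and 08h were well above those of 12h. The remaining 5 were AT3G26960, AT3G61820, AT3G13230, AT1G67360 and AT5G65860, with differences of 2.97, 2.77, 2.39, 2.28 and 2.10 log2 units in that order. AT1G67360 was nearly flat on the night side, with 91.0, 81.8, 79.4 and 90.6 in night-side arrays, and highest at 12h A on the day side.

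The genes with the widest gaps lower on the day side held a regulatory subunit of SnRK1, an enzyme of leucine breakdown and an autophagy gene. *AKINBETA1*, a beta subunit of the SnRK1 complex, had 31.2, 39.1, 54.6 and 34.4 in day-side arrays, against 942, 1396, 1806 and 1372 in night-side arrays. The difference was -4.62 ± 0.21 (SE, limma adjusted p = 4.14e-07), and no day-side array came near the lowest night-side array, 16h. *MCCA*, the biotin-carrying subunit of 3-methylcrotonyl-CoA carboxylase in leucine breakdown, had 23.6, 21.5, 43.7 and 22.0 in day-side arrays, against 745, 1291, 943 and 812 in night-side arrays. Its 12h A value was above the other 3 day-side values, which lay close together, and the difference was -4.46 ± 0.22 (SE, limma adjusted p = 5.59e-07). *ATG8E*, a ubiquitin-like protein that is joined to the autophagosome membrane, had 35.3, 41.4, 50.1 and 43.9 in day-side arrays, against 767, 696, 869 and 989 in night-side arrays. Both sides of *ATG8E* were narrow, and the difference was -3.84 ± 0.16 (SE, limma adjusted p = 2.8e-07).

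The other 9 genes of this group are known by locus only. AT3G15450 had the widest gap of all tested genes with a single name, 4.59 log2 units, with 40.5, 104, 104 and 38.1 in day-side arrays, against 2895, 3133, 5748 and 2990.4 in night-side arrays. Its difference was -5.44 ± 0.33 (SE, limma adjusted p = 2.35e-06), and the 00h A array stood above the other 3 of its side. AT5G19120 had 28.3, 32.4, 34.6 and 54.1 in day-side arrays, against 1555, 1758, 1979 and 1987 in night-side arrays, a difference of -5.12 ± 0.18 (SE, limma adjusted p = 7.7e-08). AT2G20670 had 26.7, 6.7, 2.1 and 2.0 in day-side arrays, against 1019, 1306, 1747 and 929 in night-side arrays, with the 04h array above the other 3 of its side. AT3G15630 had 15.4, 58.4, 95.9 and 71.4 in day-side arrays, against 1923, 1728, 1426 and 1052 in night-side arrays, so that it was lowest at 04h and highest at 16h. AT1G25400 had 22.0, 16.6, 15.2 and 11.9 in day-side arrays, against 833, 503, 348 and 275 in night-side arrays, and on each side both later hours lay below the first. AT4G27450 ran the other way on the night side, with 54.6, 60.9, 76.2 and 43.6 in day-side arrays, against 688, 1308, 1929 and 1654 in night-side arrays. The remaining 3, AT1G54740, AT1G68440 and AT1G23390, differed by -4.11, -4.51 and -3.85 log2 units.

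**Figure D2:**
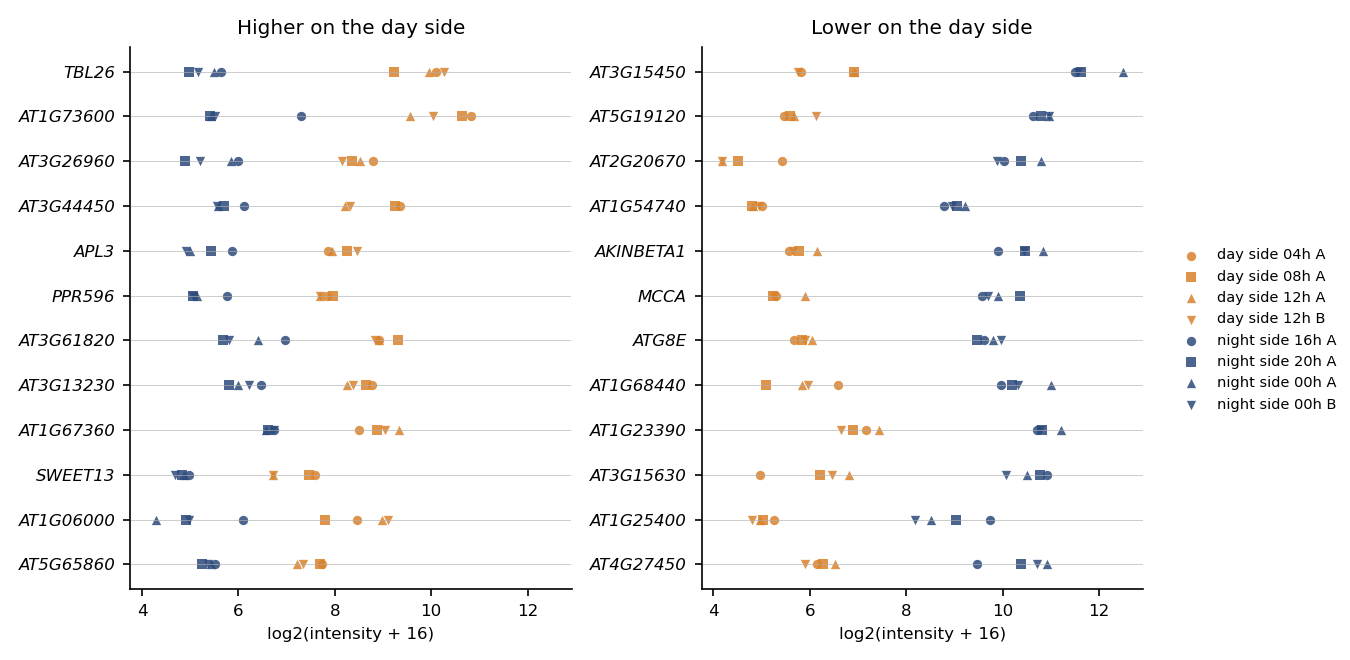
log2(intensity + 16) (horizontal axis) of the 12 higher and 12 lower genes with the widest gaps (rows, first and second panel); each symbol is 1 array, orange for the day side and blue for the night side. No row has overlapping colours, and in the first panel the 16h array often stands above the 20h and 00h arrays, as for AT1G73600 with 142 at 16h and 26.4 at 20h.

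Some genes differed between the sides by far more than they varied within either side. Among probe sets with 1 gene that differed by more than 1 log2 unit, the steadiest were taken as those with the largest gap relative to the wider of the 2 ranges. Higher on the day side these were *TBL26*, *ALDH3F1* and 4 loci. *TBL26* entered through its wide gap, since its day-side range was 1.02 log2 units. *ALDH3F1*, an aldehyde dehydrogenase, had 277, 270.2, 288 and 323 in day-side arrays, against 117, 102, 93.3 and 101 in night-side arrays. Its ranges of 0.24 and 0.28 log2 units were both far below the difference of 1.35 ± 0.14 (SE, limma adjusted p = 5.41e-05). AT4G23620 had 118, 125, 114 and 109.7 in day-side arrays, against 46.4, 34.3, 47.4 and 38.7 in night-side arrays, with a day-side range of 0.17. AT5G53420 had 216, 205, 279.9 and 229 in day-side arrays, against 53.0, 36.6, 51.8 and 42.2 in night-side arrays. For AT5G53420, AT2G32220 and AT5G65860 the differences were 2.00, 2.21 and 2.10 log2 units, and no range inside a side exceeded 0.52 for AT2G32220 or 0.52 for AT5G65860.

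Lower on the day side, the steadiest were AT1G54740, AT1G32460, *ATG8E*, AT5G19120, AT1G74840 and AT1G26800. AT1G54740 had 16.0, 11.9, 12.1 and 15.0 in day-side arrays, against 423, 515, 582 and 475 in night-side arrays, with ranges of 0.20 and 0.45 log2 units around a difference of -4.11 ± 0.14 (SE, limma adjusted p = 7.7e-08). Its day-side values were all at or below the added constant of 16, which narrows the range on that side. AT1G32460 was bright on both sides, with 179.9, 169.5, 216 and 176 in day-side arrays, against 1428, 1344, 1600.2 and 1266 in night-side arrays. AT1G74840 had 95.3, 95.0, 106 and 113 in day-side arrays, against 412, 523, 476 and 518 in night-side arrays. AT1G26800 differed by -1.35 log2 units, with ranges of 0.24 and 0.20.

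Other genes were apart although they moved widely within a side. *COR15A*, a cold-regulated protein of the chloroplast, had 375, 1575, 2452 and 1453 in day-side arrays, against 324, 46.7, 38.0 and 21.9 in night-side arrays. Its lowest day-side array, 04h, lay just above its highest night-side array, 16h, and its ranges of 2.66 and 3.17 log2 units were near its difference of 3.91 ± 0.69 (SE, limma adjusted p = 0.00132). *GSTU20*, a glutathione transferase, had 1182, 2166, 2026 and 1843 in day-side arrays, against 1116, 218, 177 and 122 in night-side arrays, and there too the 16h value almost reached the 04h value. AT4G34950 behaved likewise, with 1041, 1819.6, 1736 and 1590.2 in day-side arrays, against 790.2, 226, 61.7 and 113 in night-side arrays. *CYP71B26*, a cytochrome P450, varied on the day side instead, with 239, 207, 29.5 and 53.7 in day-side arrays, against 10.2, 9.4, 22.1 and 14.5 in night-side arrays. AT2G44940 had 281, 139.8, 64.9 and 37.9 in day-side arrays, against 21.0, 20.9, 26.1 and 10.3 in night-side arrays, its 04h value being the highest.

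Among genes lower on the day side, AT2G05540 had 119, 40.3, 22.7 and 12.5 in day-side arrays, against 538, 1171, 1576 and 1563 in night-side arrays. It was highest at 04h on its low side and lowest at 16h on its high side. AT1G25275 was instead lowest at 04h, with 304, 574, 1556 and 759 in day-side arrays, against 2439, 2141, 2749 and 1962 in night-side arrays. AT5G11070 had 45.2, 134, 272 and 183 in day-side arrays, against 1150.3, 932, 943 and 714 in night-side arrays. The widest night ranges among them were those of AT1G05340, AT1G19540 and AT1G19530, at 2.48, 2.37 and 2.23 log2 units. In the neighbouring loci AT1G19540 and AT1G19530 the 16h array lay far below the other night-side arrays, with 87.9 against 409.7, 520.3 and 511 for AT1G19540 and 38.0 against 237, 238 and 191 for AT1G19530.

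Steadiness was then counted over all 2262 probe sets that were called, apart and differed by more than 1 log2 unit. A side was counted as steady when its 4 arrays spanned less than 1 log2 unit. The shares below hold for the added constant of 16 and differ with other constants, as given in the last section. Of the 1137 probe sets higher on the day side, 590 (51.9%) were steady on both sides, 342 (30.1%) on the day side only, 116 (10.2%) on the night side only and 89 (7.83%) on neither. Of the 1125 lower on the day side, 714 (63.5%) were steady on both, 186 (16.5%) on the day side only, 156 (13.9%) on the night side only and 69 (6.13%) on neither. Over all tested probe sets 77.5% were steady on both sides, but most of those changed little. For genes higher on the day side the median range was 0.632 on the day side and 0.876 on the night side, and the night range was the larger in 777 (68.3%). For genes lower on the day side the medians were 0.640 and 0.715, with the night range larger in 635 (56.4%), and over all tested probe sets they were 0.541 and 0.542. The genes whose level was high on the day side were less even on the night side, where they were low, than on the day side.

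**Figure D3:**
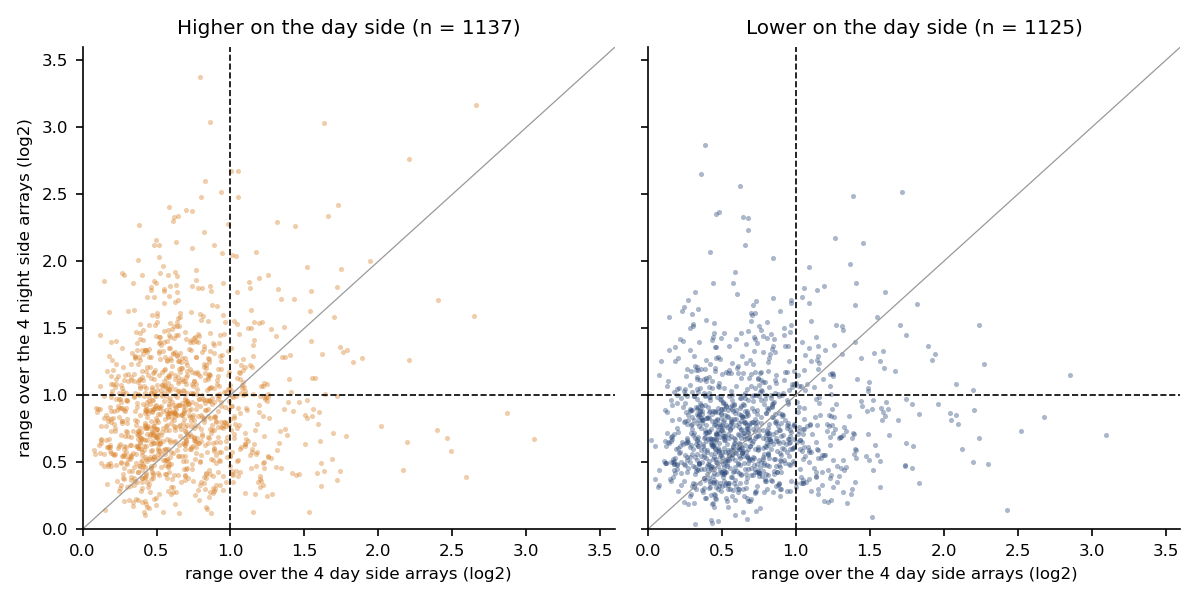
Range over the 4 day-side arrays (horizontal axis, log2 units) against the range over the 4 night-side arrays (vertical axis, log2 units) of the 2262 probe sets that were called, apart and over 2-fold, in one panel per direction; each point is 1 probe set, dashed lines mark 1 log2 unit and the grey line marks equal ranges. In the panel of genes higher on the day side 777 of 1137 points lie above the grey line.

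On the night side, the 16h array was most often the one nearest to the day side. In 980 of the 1137 probe sets higher on the day side (86.2%) the 16h array was the night-side array closest to the day side, against 2.29% for 20h, 6.86% for 00h A and 4.66% for 00h B. Among the 1125 lower on the day side the 16h array was again the closest, in 710 (63.1%), against 7.38% for 20h, 15.8% for 00h A and 13.7% for 00h B. On the day side no array held such a share. The closest to the night side was 12h A in 40.3% and 04h in 34.0% of the higher probe sets, with 08h at 7.04% and 12h B at 18.6%. In the lower ones it was 04h in 46.1%, 08h in 12.9%, 12h A in 28.1% and 12h B in 12.9%. As 16h has 1 array, its hour and its array cannot be told apart.

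The order of the hours within a side was read with the A and B arrays of an hour averaged. Of the probe sets higher on the day side, 698 (61.4%) were lower at each step over 16h, 20h and 00h, and 13 (1.14%) were higher at each step, with a median change of -0.67 log2 units between 16h and 00h. On the day side the same genes went up over 04h, 08h and 12h in 234 (20.6%) and down in 232 (20.4%). Of the probe sets lower on the day side, 547 (48.6%) went up at each step over the night-side hours and 85 (7.56%) went down, a median change of 0.41. On the day side 152 (13.5%) of them went up and 341 (30.3%) went down. Over all tested probe sets 21.9% went up and 30.4% went down on the night side, and 18.9% and 25.9% did so on the day side. No test was made of these orders, because 4 of the 6 hours have a single array.

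**Figure D4:**
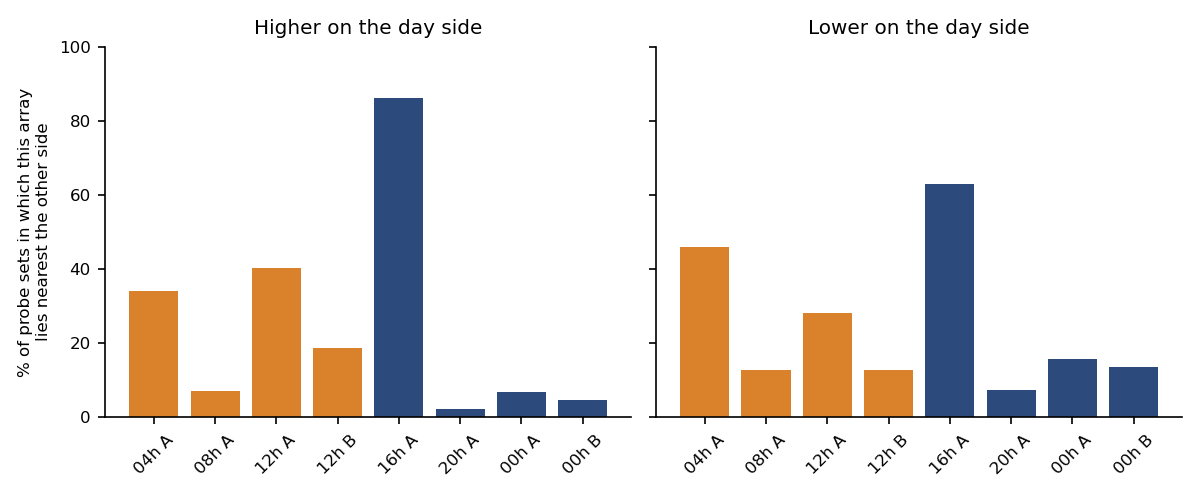
Percent of probe sets (vertical axis) in which each of the 8 arrays (horizontal axis) was the one of its side closest to the other side, for probe sets over 2-fold higher (first panel, 1137) and lower (second panel, 1125) on the day side; bars start at 0. The 16h bar is the tallest of the night side in both panels, at 86.2% and 63.1%.

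The 16h array also lay at the edge of the rule. The probe sets that were only just apart included AT4G17520, with 300.5, 354, 180.3 and 349.6 in day-side arrays, against 179, 129, 69.3 and 69.5 in night-side arrays, where 12h A and 16h were almost equal. *GSTU16*, a glutathione transferase, was just apart in the other direction, with 129, 53.6, 87.1 and 85.4 in day-side arrays, against 133, 238, 351 and 321 in night-side arrays, where 04h and 16h were almost equal. Just outside lay AT5G64030, with 219, 241, 130.0 and 208 in day-side arrays, against 130.2, 97.1, 65.7 and 64.8 in night-side arrays. *GLX2-5*, of the glyoxalase II family, was also outside because its 04h and 16h arrays shared the value 142. In all 4 genes the night-side array at the edge was 16h. With 1 array left out, which loosens the rule, between 5507 and 6796 probe sets were apart in place of 5352, and the highest count was that without 16h.

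The described genes were next grouped by role. Over 50 lists, 444 genes were tested, and 101 were called higher and 76 lower on the day side. Each count below stands against the 23.6% of all tested probe sets called higher and the 20.1% called lower, and each median against 0.05 over all tested. The lists were chosen with earlier results of these data known, so no count is a test of a role. The listed genes of starch synthesis were higher on the day side. All 3 listed genes rose, with a median difference of 1.40 log2 units. Besides *APL3*, *APL4*, another large subunit of ADP-glucose pyrophosphorylase, had 24.1, 59.7, 37.7 and 53.7 in day-side arrays, against 14.6, 10.3, 4.2 and 2.0 in night-side arrays. *SBE2.2*, a starch branching enzyme, had 416, 602, 466 and 662 in day-side arrays, against 312, 209.7, 147 and 133 in night-side arrays, and rose by 1.40 ± 0.26 (SE, limma adjusted p = 0.00164). In both genes the night-side values were ordered 16h, 20h and 00h from high to low, and the day-side high was in the 08h or 12h B array.

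Of 4 genes of starch breakdown, 1 was called and none was apart, and the count depended on the 04h array. *DPE1*, the plastid disproportionating enzyme that acts on short glucans, had 85.8, 373, 374 and 389 in day-side arrays, against 166, 104, 51.7 and 51.7 in night-side arrays. Its difference of 1.49 ± 0.47 (SE, limma adjusted p = 0.0247) lost the call without any 1 of 5 other arrays, the highest adjusted p among these being 0.0717. *PWD*, phosphoglucan water dikinase, read at AT5G26570, had 105, 610.1, 686 and 843 in day-side arrays, against 367, 289, 147 and 149 in night-side arrays. The 04h array was the lowest of all 8 for *PWD*, and the difference was 0.96 ± 0.56 (SE, limma adjusted p = 0.184). Without 04h it was 1.61 with an adjusted p of 0.00225, and 3 of the 4 genes were then called higher. *AMY1*, an alpha-amylase, differed by 0.50, with an adjusted p in limma of 0.0536.

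Sugar transporters went both ways, with 3 higher and 3 lower of 11 and a median of -0.09. *SWEET17*, a fructose transporter of the vacuole, had 639.8, 552, 247 and 236 in day-side arrays, against 202, 126, 147 and 118 in night-side arrays, and rose by 1.3 ± 0.32 (SE, limma adjusted p = 0.00823). *SWEET2*, a vacuolar sugar transporter, had 132, 33.2, 36.8 and 33.5 in day-side arrays, against 271, 302, 600.2 and 229 in night-side arrays, and its 04h value stood apart from the other 3 day-side values. Its difference was -2.38 ± 0.39 (SE, limma adjusted p = 0.000791), opposite in sign to those of *SWEET13* and *SWEET17*. *SFP1*, of a family of monosaccharide transporters, fell by 0.70 ± 0.16 (SE, limma adjusted p = 0.00479).

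Most of the listed genes of amino acid breakdown and of autophagy were lower on the day side. Of 9 genes of branched-chain amino acid and lysine breakdown, 5 fell and 1 rose, with a median of -0.96. *IVD*, isovaleryl-CoA dehydrogenase, which acts 1 step before *MCCA*, had 41.9, 50.6, 35.2 and 67.1 in day-side arrays, against 204, 513, 422 and 657 in night-side arrays. *ETFQO*, which passes the electrons of this step to ubiquinone, had 41.1, 36.5, 47.1 and 40.5 in day-side arrays, against 197, 288, 176 and 252 in night-side arrays, a difference of -2.07 ± 0.17 (SE, limma adjusted p = 1.68e-05). *ALDH6B2*, a dehydrogenase of valine breakdown, had 129, 340.4, 469.7 and 371 in day-side arrays, against 1055, 1343, 989 and 960.5 in night-side arrays. The 4 night-side arrays of *ALDH6B2* lay close together, while on the day side 04h was the lowest and 12h A the highest. *MGL*, methionine gamma-lyase, which splits methionine, had 87.3, 32.6, 52.8 and 54.8 in day-side arrays, against 411, 1362, 704 and 839.9 in night-side arrays, and fell by 3.46 ± 0.34 (SE, limma adjusted p = 3.96e-05). It belongs to a list of 5 genes of methionine and polyamine metabolism of which 2 fell and 1 rose, and of which 1 was called without 12h B.

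Of 10 autophagy genes of the *ATG8* family and *ATG3*, 6 fell and none rose, with a median of -0.81, and all 6 were apart. *ATG8H* had 26.0, 19.3, 21.2 and 24.9 in day-side arrays, against 101, 83.4, 90.3 and 175 in night-side arrays, with 00h B the highest. *ATG8F* had 576, 510.1, 704 and 488 in day-side arrays, against 1239, 1658, 2317 and 1789.7 in night-side arrays. *ATG8C* differed less, with 167, 158, 157 and 145 in day-side arrays, against 291, 359, 328 and 394 in night-side arrays, a difference of -1.05 ± 0.14 (SE, limma adjusted p = 0.000319). All 4 *ATG8* genes that passed 2-fold spanned less than 1 log2 unit on both sides. Of 12 genes of the ESCRT complexes and of sorting to the vacuole, 3 fell and none rose, where 43.7% of all tested probe sets were called. *VPS60.1*, an ESCRT-III-related protein, had 52.8, 34.1, 57.8 and 46.3 in day-side arrays, against 121, 124, 144 and 206 in night-side arrays, and *ELC*, an ESCRT-I component that binds ubiquitin, had 123, 96.4, 76.7 and 96.8 in day-side arrays, against 187, 265, 237 and 354 in night-side arrays. Of 4 genes of purine and urea breakdown, 2 fell, *AAH* (allantoate amidohydrolase) by 1.37 ± 0.24 (SE, limma adjusted p = 0.00127) and *ALN* (allantoinase) by 0.61 ± 0.14 (SE, limma adjusted p = 0.00622). The other two, *UGLYAH* and *URE* (urease), differed by 0.18 and 0.03 log2 units and were not called, the sign of *URE* turning under other scalings.

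Of 5 genes of SnRK1, its counterpart TOR and the group S bZIP factors, 2 rose and 2 fell. *RAPTOR2*, a subunit of the TOR kinase complex, had 47.2, 38.9, 52.8 and 50.5 in day-side arrays, against 25.5, 17.3, 16.2 and 17.2 in night-side arrays, a rise of 0.86 ± 0.14 (SE, limma adjusted p = 0.000815). *bZIP44*, a leucine zipper factor of group S, had 60.4, 46.0, 38.4 and 41.5 in day-side arrays, against 25.5, 22.5, 18.7 and 31.8 in night-side arrays, and rose by 0.62 ± 0.16 (SE, limma adjusted p = 0.00896). *BZIP53*, of the same group, went the other way, at -0.80 ± 0.24 (SE, limma adjusted p = 0.019). Its sides were only just apart, and without 08h the adjusted p in limma was 0.0532. *AKINBETA1*, described above, had by far the largest difference of the 5.

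Most listed genes of flavonoid and glucosinolate synthesis were higher on the day side. All 6 genes of flavonoid synthesis rose, with a median of 1.84 log2 units, although only 1 of the 4 that passed 2-fold and were apart was steady on both sides. *CHIL*, a non-catalytic helper of chalcone synthase, had 91.6, 93.6, 222 and 227 in day-side arrays, against 58.8, 2.9, 2.6 and 1.8 in night-side arrays. Its night-side values were close to 0 except at 16h, and on the day side both 12h arrays exceeded 04h and 08h. *UF3GT*, which adds a sugar to anthocyanins, had 116, 166, 324 and 414 in day-side arrays, against 63.7, 20.5, 10.6 and 26.2 in night-side arrays, and *UGT78D1*, a flavonol rhamnosyltransferase, had 206, 194, 255 and 364 in day-side arrays, against 71.3, 38.4, 41.5 and 63.4 in night-side arrays. *AT5MAT*, a malonyltransferase of anthocyanins, rose by 1.72 ± 0.25 (SE, limma adjusted p = 0.000399). Of 6 genes of glucosinolate synthesis and transport, 5 rose, with a median of 1.59. *BCAT4*, which starts the chain elongation of methionine, had 1009, 1849.7, 2110.3 and 1728 in day-side arrays, against 718, 222, 131 and 99.3 in night-side arrays, so that it was lower from one night-side hour to the next. *UGT74B1*, which glucosylates the glucosinolate precursor, had 674, 694, 550.3 and 607 in day-side arrays, against 226, 144, 133 and 94.2 in night-side arrays, a difference of 2.02 ± 0.22 (SE, limma adjusted p = 9.37e-05).

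Subunits of the nuclear RNA polymerases rose in 7 of 8 genes, and all 7 were apart, with a median of 1.18. *NRPA2*, the second largest subunit of polymerase I, had 234, 217, 183 and 195 in day-side arrays, against 67.2, 43.6, 57.6 and 40.6 in night-side arrays, a difference of 1.72 ± 0.17 (SE, limma adjusted p = 3.86e-05). *NRPA1*, the largest subunit of the same enzyme, had 87.6, 84.5, 32.4 and 46.2 in day-side arrays, against 13.7, 8.6, 9.4 and 3.1 in night-side arrays, and was lower in both 12h arrays than at 04h and 08h. *NRPB12*, a small subunit, had 226, 255, 216 and 283 in day-side arrays, against 114, 68.9, 88.9 and 111 in night-side arrays, and *NRPC2*, of polymerase III, rose by 1.23 ± 0.17 (SE, limma adjusted p = 0.000371). Of 7 genes of pre-rRNA processing, 3 rose and none fell, with a median of 0.70. With the hybridisation control level as a block 5 rose and 2 fell, without 16h 4 rose and 2 fell, and without 12h A 5 rose. *YAO*, a nucleolar WD40 protein, had 174, 159, 82.5 and 88.8 in day-side arrays, against 30.8, 19.6, 28.3 and 21.9 in night-side arrays, and *IMP4*, of the small subunit processome, had 175, 167, 134 and 152 in day-side arrays, against 58.8, 47.6, 67.0 and 59.1 in night-side arrays.

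In 8 pentatricopeptide repeat genes of organelle RNA 4 rose and none fell, *PPR336* by 1.80 ± 0.25 (SE, limma adjusted p = 0.000326) and *OTP81*, an editing factor of plastid transcripts, by 1.66 ± 0.36 (SE, limma adjusted p = 0.00379). *CRR21*, at 0.63 ± 0.23 (SE, limma adjusted p = 0.0447), had overlapping sides. It lost its call under many other settings, among them quantile normalization and arrays scaled to the same median. For *OTP81* the 04h array, at 16.9, was the lowest of the day side and close to the 16h array, at 13.5. Of 11 chaperonins and co-chaperones, 5 rose and 1 fell. *Cpn60beta2*, a subunit of the plastid chaperonin, had 1089, 843, 1195 and 1318 in day-side arrays, against 393, 157, 93.6 and 76.4 in night-side arrays, and *BOB1*, a small heat shock protein, had 251, 184, 187 and 240.0 in day-side arrays, against 95.9, 88.0, 91.6 and 89.1 in night-side arrays. The 4 night-side arrays of *BOB1* spanned only 0.11 log2 units, whereas those of *Cpn60beta2* spanned 2.15. *Fes1C*, which acts on HSP70, was the 1 that fell, with 48.2, 64.7, 51.7 and 58.5 in day-side arrays, against 139, 258, 287 and 342 in night-side arrays.

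Among wall and cytoskeleton genes the listed groups differed. Of 13 *TBL* genes 1 rose and 1 fell, and of 9 expansins 2 rose, *EXPA15* by 1.21 ± 0.18 (SE, limma adjusted p = 0.000587). Of 9 GH9 endoglucanases and xyloglucan enzymes, 5 rose and 1 fell, with a median of 0.72. *GH9C2*, an endoglucanase with a carbohydrate-binding module, had 462, 559, 562 and 368 in day-side arrays, against 104, 44.2, 28.7 and 25.5 in night-side arrays, and rose by 3.04 ± 0.31 (SE, limma adjusted p = 5.45e-05). *EXGT-A3*, a xyloglucan endotransglucosylase, fell, with 395, 237, 217 and 279.5 in day-side arrays, against 1004, 1116, 1396 and 1309 in night-side arrays. Of 7 tubulins, 5 rose and 1 fell, with a median of 1.07. *TUA6*, an alpha-tubulin, had 1265, 1674, 1731 and 1493 in day-side arrays, against 1046, 601, 387 and 354 in night-side arrays, lower at each later night-side hour, while *TUA1* had 144, 85.1, 84.7 and 92.6 in day-side arrays, against 192, 291, 295 and 366 in night-side arrays. The test of *TUA1* gave -1.35 ± 0.22 (SE, limma adjusted p = 0.000811), with the 04h array the closest to the night side. Of 14 histone and mitosis genes, 5 rose and 3 fell, but 2 rose and 2 fell with the A and B arrays averaged or on the 6 arrays without 12h A and 00h A. Among those that rose was *HTB1* (histone H2B), by 1.43 ± 0.21 (SE, limma adjusted p = 0.000501). *FBL17*, an F-box protein that removes inhibitors of the cell cycle, fell by 0.64 ± 0.14 (SE, limma adjusted p = 0.00432).

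**Figure D5:**
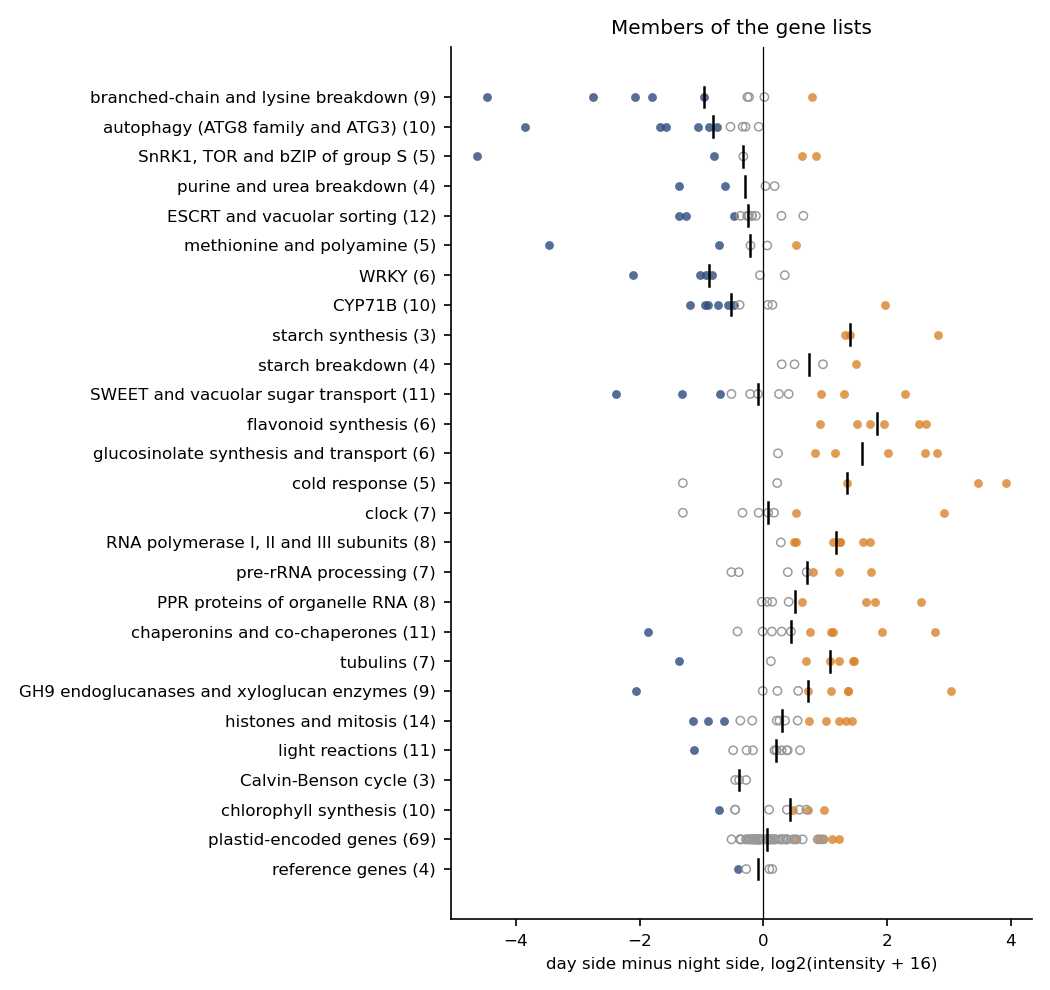
Day side minus night side difference (horizontal axis, log2 units) of each tested member of most of the gene lists described (rows); each point is 1 gene, filled where it was called (orange higher, blue lower) and open where it was not, and the black tick of a row is its median. The flavonoid row lies to the right of 0 and the autophagy row to the left, with medians of 1.84 and -0.81.

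The listed nuclear genes of photosynthesis were mostly not called, and the count depended on the setting. Of 11 genes of the light reactions none rose and 1 fell. With the hybridisation control level as a block 3 rose and 1 fell, and without 00h A 2 rose and 1 fell. After quantile normalization, and likewise without 16h, none rose and 2 fell. None of the 3 Calvin-Benson genes was called, whereas 1 fell with that block and 2 fell after quantile normalization. *LHCB4.1*, a minor antenna protein of photosystem II, had 4521, 4468, 6295 and 3824 in day-side arrays, against 2765, 3083, 5530.2 and 3456 in night-side arrays, and the 12h A and 00h A arrays were the highest of their sides. Its difference was 0.39 ± 0.24 (SE, limma adjusted p = 0.207), with an adjusted p of 0.0220 in limma with the block. *PRK*, phosphoribulokinase, had 2802, 1903, 3328 and 2529 in day-side arrays, against 2949, 3594, 5352 and 2806 in night-side arrays, a difference of -0.45 ± 0.24 (SE, limma adjusted p = 0.151), with an adjusted p of 0.0364 with the block and of 0.00596 after quantile normalization. *CYTC6A*, a cytochrome of the thylakoid lumen, was the 1 that fell, with 63.6, 86.5, 92.8 and 90.6 in day-side arrays, against 146, 212, 229 and 220.2 in night-side arrays. Of 10 genes of chlorophyll synthesis, 3 rose and 1 fell, and without the 16h array 4 rose and 3 fell. *CHLI2*, a subunit of magnesium chelatase, rose by 0.98 ± 0.21 (SE, limma adjusted p = 0.00377), while *HEMA2*, a glutamyl-tRNA reductase, fell by 0.72 ± 0.14 (SE, limma adjusted p = 0.00222). Of 69 plastid-encoded genes 5 rose and none fell, with 8 called without 04h and 3 without 12h B, 20h or 00h B. Their median of 0.06 turned to -0.09 with arrays scaled to the same median. *rbcL*, the large subunit of Rubisco, had 813, 474, 347 and 707 in day-side arrays, against 242, 284, 266 and 148 in night-side arrays, and *petD*, of the cytochrome b6f complex, had 119, 66.1, 97.9 and 178 in day-side arrays, against 43.1, 38.9, 37.7 and 47.7 in night-side arrays.

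Some clock and cold genes moved widely within the day side. Of 7 clock genes 2 rose, and 1 of them, *XCT*, lost its call under 13 settings, among them the omission of any 1 array other than 12h A and 16h. The median of 0.08 turned to -0.07 with arrays scaled to the same median. *GI* (*GIGANTEA*), an evening-phased clock component, had 70.4, 372, 151 and 185 in day-side arrays, against 7.8, 4.6, 9.2 and 12.0 in night-side arrays. It was apart, with a peak at 08h, and differed by 2.92 ± 0.36 (SE, limma adjusted p = 0.000167). *COR27*, a cold-induced regulator of the clock, had 0.8, 168, 141 and 120.4 in day-side arrays, against 202, 233, 177 and 218 in night-side arrays, and was not called at -1.3 ± 0.63 (SE, limma adjusted p = 0.115). Without the 04h array the difference of *COR27* was -0.49 with an adjusted p of 0.0410. Of 5 cold-response genes 3 rose, among them *COR15B*, with 130.0, 1572, 882 and 760.3 in day-side arrays, against 141, 34.2, 17.1 and 25 in night-side arrays. Its 04h value lay below its 16h value, so that the sides overlapped, although the difference was 3.47 ± 0.68 (SE, limma adjusted p = 0.00231).

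The listed *WRKY* genes were lower on the day side or not called. Of 6 *WRKY* transcription factors 4 fell and none rose, with a median of -0.88. *WRKY6*, a factor known from senescence and defence, had 7.5, 4.2, 10.7 and 4.0 in day-side arrays, against 83.7, 84.8, 50.6 and 114 in night-side arrays, and *WRKY22* had 18.4, 18.2, 22.2 and 14.8 in day-side arrays, against 55.7, 46.0, 51.9 and 61.0 in night-side arrays. *WRKY53*, a senescence regulator, fell by 0.93 ± 0.17 (SE, limma adjusted p = 0.00181). Of 10 *CYP71B* cytochromes P450, 6 fell and 1, *CYP71B26*, rose, but only 1 of the 6 was apart, and the count of calls was 2 on the 6 arrays left without 12h A and 00h A and 3 or 4 without 08h, 20h, 00h A or 00h B. *STZ*, a zinc finger repressor that is induced by many stresses and listed here as a sign of handling, had 39.0, 26.2, 44.1 and 23.7 in day-side arrays, against 171, 153, 134 and 147 in night-side arrays. It was the 1 listed handling marker with a named probe set, its difference was -1.78 ± 0.17 (SE, limma adjusted p = 3.57e-05), and its part in the differences of the *WRKY* genes and the others was not tested.

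No listed marker of a cell type or organ was called on all 8 arrays as deposited, but 3 were called under other settings. *FMA*, the 1 of 3 guard cell markers that passed the filter, ranged between 41.5 and 88.1, and *PYK10*, a beta-glucosidase of roots, between 89.3 and 300.0. The difference of *PYK10* was -0.69 ± 0.27 (SE, limma adjusted p = 0.0621), and without 16h it was -0.93 with an adjusted p of 0.00753. *RCA*, Rubisco activase and the listed mesophyll marker, was bright on all 8 arrays, at 2299.9 to 6704. Its difference was -0.39 ± 0.28 (SE, limma adjusted p = 0.273), and after quantile normalization it was -0.56 with an adjusted p of 0.0229. The phloem gene *SWEET11* had 629, 502, 826 and 555 in day-side arrays, against 826, 839, 1244 and 722 in night-side arrays, a difference of -0.52 ± 0.21 (SE, limma adjusted p = 0.0726). It was called under 4 settings, with an adjusted p of 0.0123 with the hybridisation control level as a block, and the part of these markers in the other differences was not tested. Of 4 reference genes, 3 were not called, and AT4G34270 differed by -0.41 ± 0.14 (SE, limma adjusted p = 0.0307), a call that other settings removed.

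Some neighbouring genes were over 2-fold different together. Neighbours were taken as adjacent genes in the RefSeq order that were both tested, 2198 pairs in all. Of 326 pairs with at least 1 gene over 2-fold higher, 10 (3.07%) had both. Of 355 pairs with at least 1 gene over 2-fold lower, 28 (7.89%) had both. Genes over 2-fold made up 7.82% (higher) and 8.03% (lower) of the 7252 genes considered. These are shares of genes, not of pairs, so they give no expected value for the pairs. No test was made of the pairs. Ranked by the smaller of their 2 differences, the first pair was AT1G19530 and AT1G19540, at -2.95 and -2.96 log2 units. *GT72B1*, a glucosyltransferase of the phenylpropanoid group, is next to *TBL26* and had 409.8, 240.4, 314 and 248 in day-side arrays, against 76.4, 48.2, 81.4 and 78.1 in night-side arrays. *Fes1C* and AT5G02160 formed another pair, with differences of -1.87 and -2.03 log2 units. The median length of genes over 2-fold was 2273 bases for the higher group (n = 570) and 2054 for the lower (n = 588), against 2354 over all tested genes with a length (n = 7322). Their median intensity was 200 in day-side and 56.2 in night-side arrays for the higher group, and 66.8 in day-side and 259.0 in night-side arrays for the lower group. The dimmer side averaged below 16, the added constant, in 119 higher (10.5%) and 102 lower (9.07%) probe sets, against 2.64% of all tested.

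Array measures moved with the sides in part. The 3′ actin control had 2249, 2371, 1571 and 1402 in day-side arrays, against 1314, 941, 663 and 415 in night-side arrays, and the 3′ GAPDH control likewise did not overlap. An exact two-sided permutation test gave p = 0.0286 for each, the smallest that 4 against 4 allows, and 0.129 after adjustment over 9 measures. The 3′/5′ ratio of actin was 2.53 to 3.19 in day-side and 2.29 to 2.74 in night-side arrays, with an exact permutation p of 0.286. The median intensity was 34.6 to 37.6 in day-side and 29.9 to 36.1 in night-side arrays, with an exact permutation p of 0.0857. The arrays 12h A and 00h A, 1 on each side, had brighter hybridisation controls, at a mean log2 of 9.28 and 9.24 against 7.50 to 7.78 in the other 6. Their 3′/5′ ratio of ubiquitin was 2.395 and 2.975 against 1.634 to 2.049, and that of GAPDH 1.181 and 1.082 against 0.9243 to 1.03. The 25S rRNA control had 869.3 and 2996 there against 65.8 to 496.9. The actin ratio, in contrast, was higher in 12h B and 00h B than in 12h A and 00h A. Over the probe sets past 2-fold, the median size of the difference within the other 6 arrays was 1.40 for those higher on the day side and 1.45 for those lower. Between the 2 bright arrays it was 1.54 in each direction. On the 6 arrays alone, 1128 of the 1137 higher and 1114 of the 1125 lower were called. These probe sets were chosen as called and apart on all 8 arrays, which fixes their sign in both sets of arrays. The agreement thus follows in part from the choice and is no separate check. For *TBL26* the differences were 4.60 on the 6 arrays and 4.47 between the 2, and for *AKINBETA1* they were -4.60 and -4.69, whereas *COR15A* had 3.38 and 5.51.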

How the data were processed

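The values are probe set intensities of 8 ATH1 arrays as deposited. Per the submitters' processing notes they came from MAS5; a version is not given in the sources used here. The mean after trimming 2% at each end is 100 on every array, so the authors' intensity values were scaled to a common mean, which cannot show a change in total RNA. Of 22810 probe sets, 64 controls were left out. The platform table gave 1 gene to 13513 of the other 22746, several to 503 and none to 8730, and 13436 of the 13513 were matched in RefSeq. A probe set with several or no genes was counted but not named. Intensities were not compared between genes. Detection calls were not used here, and the number of arrays limits the precision.

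limma 3.58.1 in R 4.3.3 (lmFit, then eBayes with a trend) was fitted to log2(intensity + 16) over the 13647 probe sets above the lowest 40% of means, with side as the only term and 8 arrays. P-values were adjusted by Benjamini-Hochberg, with 0.05 as the threshold. The fit was tested on simulated data with known changes. Exact permutation tests used scipy 1.17.1, and tables pandas 2.3.3.

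Named genes had 1 gene in the table, were called and were apart: the 12 in each direction with the widest gap, the 6 with the largest gap relative to the wider range, and the 3 with the widest range on each side. From each of the lists described, up to 4 members with the largest moderated t were eligible, called or not, with the clock, reference and marker genes; genes at the edge of the rule and neighbouring pairs were added by their own rank. One probe set stood for a gene, the brightest. The members and the 50 lists were chosen with earlier results of these data known. Apart from the markers, lists were drawn from genes that passed the filter on low values, so a list's count is no test, and many of its known genes are not in it. Alternatives were other constants, filters and scalings, no trend, hour means, hour, replicate letter or hybridisation control level as a block, and each array left out.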

Additional observations from a re-analysis of the deposited data

Results flagged for a closer look

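Among the named genes, 284 sides of 4 arrays were examined for 1 array far from the other 3, and 16 (5.63%) had one; chance gives about 1 in 20. Of the 16, 6 lay in the 16h array and 5 in the 04h array. The distance was taken on the log2(intensity + 16) scale.

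The 16h array was the highest of the night side for AT1G73600 (141.6), *PPR596* (38.0), *RAPTOR2* (25.5) and *CHIL* (58.8), all higher on the day side. It was the lowest of the night side for the neighbouring loci AT1G19540 (87.9) and AT1G19530 (38.0), both lower on the day side. In all 6 the 16h value thus lay towards the day-side values.

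The 04h array was the lowest of the day side for *DPE1* (85.8), *PWD* at AT5G26570 (104.8) and *COR27* (0.8), and the highest for *SWEET2* (131.9) and *TUA1* (144.1), an alpha-tubulin. The intensity of 0.8 is near the bottom of the scale.

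In the 12h A array *MCCA* (43.7) and *CYP71B22* (34.9), a cytochrome P450, were the highest of the day side. In the 00h A array AT3G15450 (5747.6) was the highest and *ATPC2* (3.4), a gamma subunit of the plastid ATP synthase, the lowest of the night side. *FBL17* (147.1) was highest in the 00h B array. The 04h and 16h hours have 1 array each, so the hour and the array cannot be told apart there.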

How the results depend on the processing

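With all 8 arrays, the number of called probe sets (5965) lay between 4325, with the lowest 60% of means left out, and 6252, with the hybridisation control level as a block, and was 5879 and 5984 with added constants of 1 and 64. It was 4843 with the A and B arrays of an hour averaged, 5071 with the hour as a random block and 4625 on the 6 arrays without 12h A and 00h A. With 1 array left out it lay between 4783 (without 20h) and 6372 (without 16h), the number of apart probe sets between 5507 and 6796, and the number of called list members, 177 in all, between 146 and 196. The arrays' letters are not shown to pair samples, since only 12h and 00h have a B array. With the replicate letter as a block, 5857 were called, 5734 of them also called without it, and *CRR21*, a plastid editing factor, and *HEME1*, of the haem and chlorophyll pathway, lost their calls, at adjusted p of 0.0591 and 0.0511. Both genes also lost the call under several other settings.

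Of the 2262 probe sets over 2-fold, 1304 spanned less than 1 log2 unit on both sides, and 185 did so with a bound of 0.5. The added constant changed both the set and the share that was steady. With a constant of 1, 1269 of 2880 probe sets were steady on both sides, and with 64, 875 of 1242 were. Of 120 called named genes, 105 kept the call and the sign under each setting, of 20 run, in which they were tested. Another 15 lost the call under at least 1, and 0 changed sign. With the lowest 60% of means left out some of these genes were not tested, and an untested gene was not counted as a loss. Among genes not called, *URE* had a difference of -0.074 with arrays scaled to the same median and -0.069 after quantile normalization. With 1 array left out it lay between -0.060 (without 00h A) and 0.134 (without 12h A), and it was -0.016 without 04h and -0.010 without 12h B. *GAPC2* had -0.009 and -0.004 under those scalings, and AT2G28390 -0.039 under the first. Of the named genes not called, 12 gained a call under at least 1 setting: *SWEET11*, *VPS46.2*, *DIM1A*, *PYK10*, *PRK*, *PSB27*, *RCA* and *COR27* as lower on the day side, and *LHCB4.1*, *ATPC2*, *AMY1* and *PWD* as higher. With the lowest 60% of means left out, which tests fewer genes, the called members were 4 for RNA polymerase subunits, 2 each for *WRKY* and for SnRK1, TOR and bZIP, 1 for purine breakdown and 0 for the clock. The cause was not tested otherwise.

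Each side has 4 arrays from 3 hours, and 4 of the 6 hours have 1 array. Dim genes are compressed by the added constant. Promoter motifs were not searched.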
